A study of Rattus norvegicus with 10 samples.

Results

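Ldha and Pdk3, genes of lactate and pyruvate metabolism, were measured in the lungs of male Wistar rats aged 8 weeks. Of the 10 lung samples, 5 came from lungs in septic shock brought on with lipopolysaccharide (LPS), the endotoxin of Gram-negative bacteria, and 5 were controls. Cy3-labelled lung RNA of each sample was read on an Agilent single-colour array of its own. For LPS the dose, route and time, and for the controls any treatment, were not given in the sources used. No label ties a sample number to an animal, so every p-value refers to the spread between samples, which may be technical. The members were the catalogue probes whose RefSeq accession is that of rat Ldha (NM_017025, probe A_44_P210461) or rat Pdk3 (NM_001106581, probe A_44_P443343). They are 2 of the 30 genes that could be named through catalogue probes, and both were among the 29 of these that were tested. Each is printed as 10 spots on every array, and none of the 200 spots of the pair was saturated.

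Ldha encodes the A subunit of lactate dehydrogenase, which reduces pyruvate to lactate and returns NAD+ to glycolysis. Pdk3 encodes a pyruvate dehydrogenase kinase, an enzyme that phosphorylates and inactivates the pyruvate dehydrogenase complex and so keeps pyruvate out of the citric acid cycle. Both enzymes therefore act at the branch point where pyruvate becomes either lactate or acetyl-CoA, and a raised blood lactate is a clinical hallmark of septic shock.

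The gene starts are shown because Ldha is a textbook target of the hypoxia-inducible factor HIF-1, whose binding sites hold the letters ACGTG or GCGTG, and because both windows hold these letters. The sequences are the 250 bases before each start in RefSeq's assembly GRCr8, 5′ to 3′ on the strand of the gene, at chr1:106507842-106508091 (plus strand, Ldha) and chrX:62547372-62547621 (minus strand, Pdk3). Capitals mark ACGTG on either strand and TGACGTCA, the site of the cyclic AMP response element.
Ldha: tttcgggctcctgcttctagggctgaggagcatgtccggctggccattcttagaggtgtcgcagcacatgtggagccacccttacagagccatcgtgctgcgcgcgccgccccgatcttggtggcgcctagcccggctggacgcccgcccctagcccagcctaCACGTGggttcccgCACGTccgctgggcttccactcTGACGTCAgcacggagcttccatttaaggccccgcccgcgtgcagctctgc
Pdk3: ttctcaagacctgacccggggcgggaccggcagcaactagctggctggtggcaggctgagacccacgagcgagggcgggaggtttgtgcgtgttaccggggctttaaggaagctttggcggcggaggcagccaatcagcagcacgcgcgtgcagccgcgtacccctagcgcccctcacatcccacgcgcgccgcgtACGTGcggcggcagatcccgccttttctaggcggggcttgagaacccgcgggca
ACGTG matched 3 times in the Ldha window, 2 of them the overlapping strands of CACGTG, and 1 time in the Pdk3 window. Of 33469 windows of this length in the table, 16.6% hold it. GCGTG matched 1 time for Ldha and 4 times for Pdk3, and 25.9% of all windows hold at least 1 match. G and C made up 66.4% of the Ldha window and 68% of the Pdk3 window. The shares were taken over windows of any G and C content. TGACGTCA matched in the Ldha window alone of this pair and is found in 1.59% of windows. The consensus of NF-kappaB, a factor that LPS activates, matched in neither window and is found in 6.33% of all. A match describes letters and not a bound site.

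The arrays fell into 3 sets that share a scan stamp in the file headers and are called slides here. Slide 2 held control replicates 15, 16, 17 and 18 and no LPS array, slide 1 held LPS replicates 6 and 7, and slide 3 held LPS replicates 1, 3 and 5 with control replicate 20. That last array lay apart from its group: over all probes, the SD of its log2 difference from the remaining controls was 0.74, and 0.23 to 0.38 was found when each other array was set against the rest of its group. Spot signals were scaled to each array's 75th percentile, which ran from 265 to 333 for the arrays of slide 2 and from 366 to 474 for all others. Over all 36020 tested probes 33% passed an adjusted p of 0.05, 18% lower and 15.1% higher in LPS lungs. Of the 42 cell type markers listed for this tissue none had a catalogue probe, so the labelled tissue was not checked against markers.

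The first question was whether lungs of rats with septic shock held a different amount of Ldha transcript. Ldha was bright, and its scaled level did not differ detectably between LPS and control lungs. The log2 signal relative to the 75th percentile was 4.80 in LPS replicate 1, 4.60 in replicate 3, 4.26 in replicate 5, 4.11 in replicate 6 and 4.13 in replicate 7. In the controls it was 4.41 in replicate 15, 4.26 in replicate 16, 4.66 in replicate 17, 4.55 in replicate 18 and 4.03 in replicate 20. The groups overlapped along nearly their whole range, with an LPS array highest and a control array lowest. The mean was 4.38 ± 0.31 (SD, n = 5) in LPS and 4.38 ± 0.25 (SD, n = 5) in control lungs. The log2 difference, LPS minus control, was -0.00059 with an SE of 0.17, and limma's adjusted p over all tested probes was 0.998. The 95% interval ran from -0.37 to 0.37, which is 0.775 to 1.29 as a ratio of LPS to control. In this fit a change within these bounds could not be seen with 5 arrays a group. The fit has no term for slide, and control replicates 15, 16, 17 and 18 lay on a slide with no LPS array. Its interval therefore does not allow for a difference between slides. With slide as a fixed block the difference was 0.53, outside these bounds. An exact 2-sided permutation test over every assignment of the 10 arrays gave p = 0.992. In bulk tissue a different share of the cells that carry a transcript and a different amount per cell cannot be told apart.

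**Figure D1:**
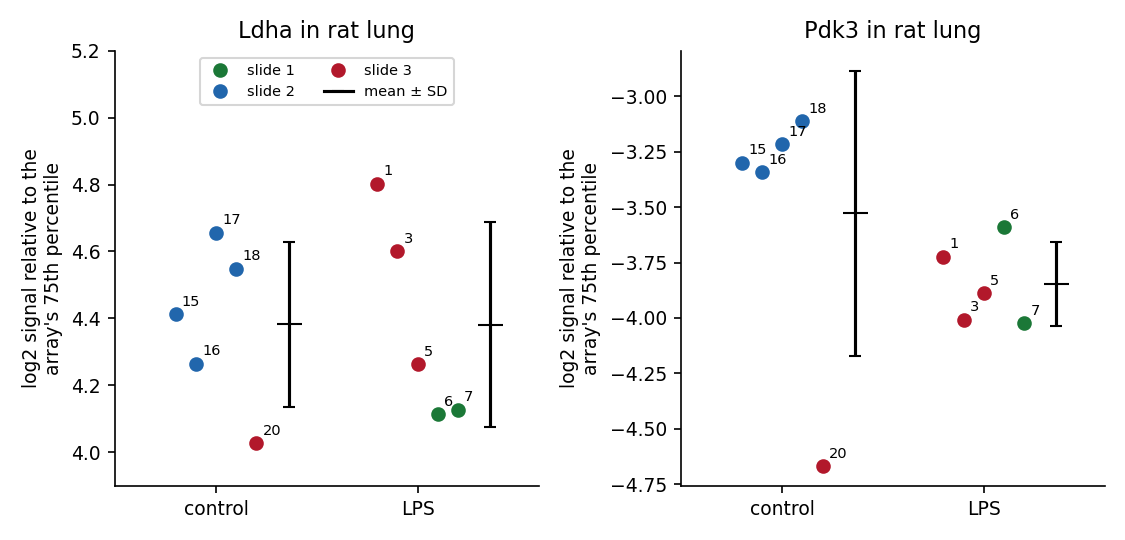
Log2 signal of Ldha (left) and Pdk3 (right) relative to each array's 75th percentile, 1 point per array, numbered by replicate and coloured by slide, with the mean and SD of the 5 arrays of each group in black. Ldha overlaps between the groups, while for Pdk3 all 5 LPS arrays lie below the 4 slide 2 controls and above control replicate 20 at -4.67.

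Within the LPS group mean Ldha was higher on slide 3 than on slide 1. The 3 LPS arrays of slide 3 had a mean of 4.56 ± 0.27 (SD, n = 3) and the 2 of slide 1 a mean of 4.12 ± 0.0089 (SD, n = 2). This difference of 0.43 was larger than that of 95.8% of tested probes, whose median was -0.013. The SD of Ldha between LPS arrays, 0.31, exceeded that of 80.5% of probes, whose median was 0.19. Among the slide 2 controls its SD was 0.17, the same as the median of all probes to 2 decimals. The control array of slide 3, replicate 20, had the lowest Ldha value of all arrays, 4.03. Whether slide or sample set the spread in the LPS group was not tested.

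Within slide 3 the 3 LPS values all lay above control replicate 20, by 0.53 on average. With slide as a fixed block in limma this difference had an SE of 0.22 and an adjusted p of 0.153, so Ldha did not pass, where 9.94% of all probes passed. Such a fit takes its comparison from slide 3 alone and therefore from a single control array. Without control replicate 20 the difference was -0.09, with an SE of 0.16 and a limma adjusted p of 0.648. In both fits the change was short of the threshold, with opposite signs.

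Before scaling, the mean spot signal of Ldha was 10208, 9787, 9041, 8210 and 8180 in LPS replicates 1, 3, 5, 6 and 7. It was 7097, 5092, 7443, 6712 and 7106 in control replicates 15, 16, 17, 18 and 20. All 5 LPS arrays were brighter than all 5 controls on this scale, a pattern that 12.7% of tested probes shared. Unscaled Ldha differed by 0.45 on the log2 scale (limma adjusted p = 0.0337), against a median of 0.40 over all probes while 41% of all probes passed and 37.4% of all probes were called higher. The brighter unscaled Ldha thus lay close to the shift of all probes, and after scaling it did not pass.

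The next question was whether Pdk3 differed. Pdk3 was dim. Its log2 difference was negative over all arrays and when any 1 array was left out. It was positive where slide entered the fit, within slide 3 alone and without scaling. Its scaled log2 signal was -3.72 in LPS replicate 1, -4.01 in replicate 3, -3.89 in replicate 5, -3.59 in replicate 6 and -4.02 in replicate 7. In the controls it was -3.30 in replicate 15, -3.34 in replicate 16, -3.22 in replicate 17, -3.11 in replicate 18 and -4.67 in replicate 20. The 4 slide 2 controls were the highest of all arrays, control replicate 20 was the lowest, and the 5 LPS arrays lay between them. Every LPS array below every slide 2 control, with control replicate 20 below every LPS array, was seen at 3.74% of tested probes.

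Over all 10 arrays the mean of Pdk3 was -3.85 ± 0.19 (SD, n = 5) in LPS and -3.53 ± 0.64 (SD, n = 5) in control lungs. The log2 difference was -0.32 with an SE of 0.26 and a 95% interval from -0.89 to 0.25, and limma's adjusted p was 0.353. The exact 2-sided permutation test gave p = 0.317. As a ratio of LPS to control the interval was 0.541 to 1.19. In this fit neither a loss of a large part of the signal nor a small gain could be told from no change. It has no term for slide, so the interval does not allow for a difference between slides.

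Without control replicate 20, the Pdk3 level was lower in LPS lungs by a log2 difference of -0.60 with an SE of 0.11, from -3.24 ± 0.10 (SD, n = 4) in the slide 2 controls, whose level was 1.52-fold that in LPS lungs. The limma adjusted p was 0.0011, where 54.6% of all probes passed. The exact 2-sided permutation test over 126 assignments gave 0.00794, the smallest p it can give. All 5 LPS arrays lay below all 4 controls, as they did at 22.6% of probes, and 29.9% of probes were called lower in the same fit. The fall of Pdk3 without that array was therefore shared in kind by many probes, and since these controls are all of slide 2, where no LPS array lay, slide and LPS cannot be told apart in it. The difference from the slide 2 controls was -0.63 for the 3 LPS arrays of slide 3 and -0.56 for the 2 of slide 1.

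With slide as a fixed block the direction was the opposite. Within slide 3 the 3 LPS arrays were 0.79 above control replicate 20 on the log2 scale, 1.73-fold, with an SE of 0.20. The limma adjusted p was 0.035, and 5.25% of all probes were called higher in that fit. With a single control array on slide 3, the SE comes from the spread among arrays within all 3 slides and, through limma, from other probes, and control replicate 20 is assumed to vary like the other arrays. A fit of slide 3 alone gave the same difference and a limma adjusted p of 0.0901, so the call was lost there, where 2.29% of probes passed. With slide as a random block, which also uses the differences between slides, Pdk3 was 0.31 higher (limma adjusted p = 0.511), where 8.68% of probes passed. Array weights, which lower the influence of arrays that deviate from their group, gave -0.63 with a limma adjusted p of 0.000661, where 60.9% of all probes passed and 34.9% of all probes were called lower.

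**Figure D2:**
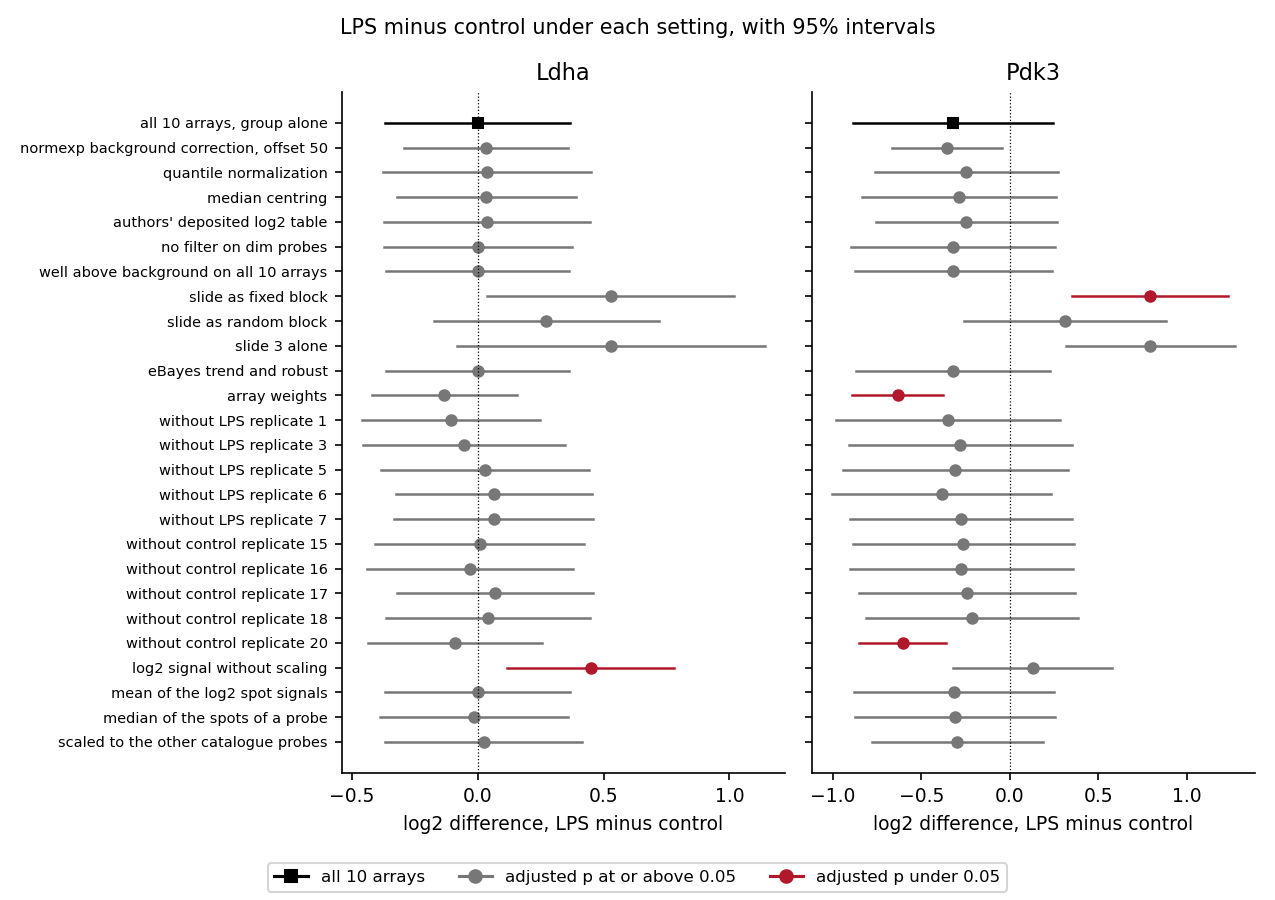
Log2 difference between LPS and control lungs for Ldha (left) and Pdk3 (right) in each fit, with its 95% interval; the square is the fit of all 10 arrays and red marks an adjusted p under 0.05. Pdk3 lies at -0.60 without control replicate 20 and at 0.79 with slide as a fixed block, both in red and on opposite sides of 0, while Ldha passes in the unscaled fit alone.

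Set against the slide 2 control mean, control replicate 20 had a log2 difference of -1.43 for Pdk3, and 2.55% of tested probes lay further down by this measure. For Ldha it was -0.44, with 28.8% of probes further down and a median over all probes of -0.13. The scaled median of the other catalogue probes was also low on this array, at -0.51 against -0.32 to -0.05 on the slide 2 controls. Scaled to those probes, Pdk3 was -4.16 on control replicate 20 and -3.29 to -2.90 on the slide 2 controls. On that scale LPS replicate 6, at -3.24, lay above control replicate 16, at -3.29. The other LPS arrays still lay below every slide 2 control. Ldha was then 4.53 on control replicate 20, within the 4.32 to 4.97 of the slide 2 controls. The difference of this array from the mean of the LPS arrays was -0.82 for Pdk3, and it was the lowest of the 10 arrays at 19.7% of probes. It was thus on the far side of the LPS arrays, not between them and the other controls.

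The spots of each probe gave the spread within an array, which holds no error of labelling, hybridisation or slide. On control replicate 20 the 10 spots of Pdk3 had unscaled signals from 14.4 to 20.4. All 10 were below each of the 50 LPS spots, which ran from 22.1 to 46.1, and below each of the 40 spots on the slide 2 controls, which ran from 22.2 to 42. The low value of that array was therefore present before scaling and in every spot. The SD between spots of Pdk3 on an array was 0.084 to 0.18 on the log2 scale, and the SE of an array's mean 0.027 to 0.056. For Ldha the SD between spots was 0.036 to 0.099.

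**Figure D3:**
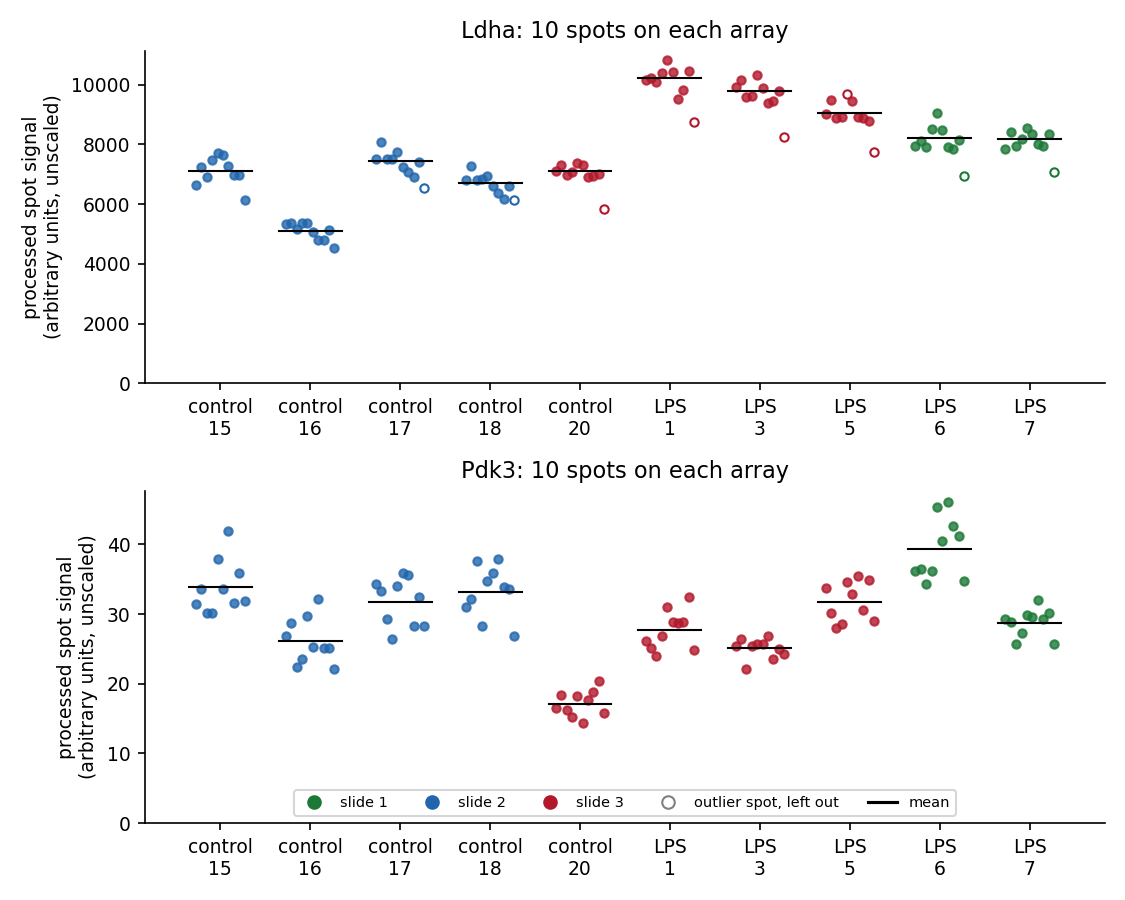
Unscaled processed signal of each of the 10 spots of Ldha (top) and Pdk3 (bottom) on every array, coloured by slide, with the mean of the spots used as a black line and open circles for spots marked as outliers. Ldha is brighter on all LPS arrays before scaling, and all 10 Pdk3 spots of control replicate 20, at 14.4 to 20.4, lie below the spots of every other array.

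The dimness of Pdk3 bears on its values. All 10 of its spots were well above background on every array, but the median brightness of the spots was 1.92 to 3.05 times the local background, against 255 to 587 times for Ldha. The mean unscaled signal of Pdk3 was 27.7, 25.1, 31.8, 39.4 and 28.8 in LPS replicates 1, 3, 5, 6 and 7. It was 33.8, 26.1, 31.8, 33.2 and 17.2 in control replicates 15, 16, 17, 18 and 20. On this scale the LPS arrays and the slide 2 controls overlapped, with means of 30.5 ± 5.50 (SD, n = 5) and 31.2 ± 3.52 (SD, n = 4). The lower scaled level of Pdk3 in LPS lungs against the slide 2 controls thus moved with the higher 75th percentile of the LPS arrays, and the part of scaling in it was not tested further. Over all 10 arrays, unscaled Pdk3 differed by 0.13 on the log2 scale (limma adjusted p = 0.631), against the median of 0.40 over all probes.

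In the authors' deposited table of log2 values, whose columns share 1 median, Pdk3 was at 4.79, 4.63, 4.76, 4.90 and 4.59 in LPS replicates 1, 3, 5, 6 and 7. It was at 5.22, 5.15, 5.19, 5.39 and 3.95 in control replicates 15, 16, 17, 18 and 20. The order was the same as in the scaled scanner signals: slide 2 controls highest, LPS arrays between, control replicate 20 lowest. A limma fit of the deposited table gave a log2 difference of -0.25 for Pdk3 (adjusted p = 0.426) and 0.037 for Ldha (adjusted p = 0.893), where 34.7% of probes passed.

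The pair was also compared within arrays, since the log2 ratio of both signals on an array does not change when all signals of an array are divided by 1 factor. Only its differences between arrays carry meaning, as the levels of different probes are not comparable. Set against the mean of the controls, the Pdk3 to Ldha ratio was -0.62, -0.70, -0.24, 0.21 and -0.24 on the log2 scale in LPS replicates 1, 3, 5, 6 and 7. It was 0.20, 0.30, 0.04, 0.25 and -0.79 in control replicates 15, 16, 17, 18 and 20. LPS replicate 6 lay among the slide 2 controls, the other 4 LPS arrays lay below them, and control replicate 20 lay lowest. The mean difference between LPS and control was -0.32 with a pooled SD of 0.41, smaller than the spread between arrays. Without control replicate 20 it was -0.52 with a pooled SD of 0.28, and within slide 3 it was 0.27, again with the sign turned.

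The named genes whose pattern was most like each member were found after each gene was centred on its mean and divided by its SD over the 10 arrays. Likeness was the root mean square difference over the arrays, in units of that SD, among 28 other tested genes with a symbol. Closest to Pdk3 was Nlrp3, which encodes a sensor of the inflammasome, at 0.144, then Mex3c, which encodes an RNA-binding ubiquitin ligase, at 0.296 and Eif4b, a translation initiation factor, at 0.405. Control replicate 20 was the lowest array for all 3, as for Pdk3. The genes were picked by likeness over these same arrays, so part of this follows from the choice. It was also the lowest array for Ldha and at 19.7% of all probes. When that array was left out, Nlrp3 and Mex3c were still the nearest, at 0.190 and 0.308, and Dlg4, which encodes a scaffold protein of synapses, came next at 0.352. Nlrp3 was at -5.04, -5.33, -5.14, -4.72 and -5.49 in LPS replicates 1, 3, 5, 6 and 7 on the scaled log2 scale. It was at -4.55, -4.69, -4.44, -4.33 and -6.32 in control replicates 15, 16, 17, 18 and 20. All LPS values of Nlrp3 thus lay between control replicate 20 and the other controls, as for Pdk3. The Nlrp3 and Dlg4 probes were dimmer than the dim Pdk3 probe on every array, while those of Mex3c and Eif4b were brighter. Whether low signal had a part in the likeness was not tested.

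The pair itself differed by 0.965 on this measure, which put Pdk3 at rank 7 among the genes nearest to Ldha. The genes nearest to Ldha were Trim2, a ubiquitin ligase gene, at 0.666, Pld1, which encodes a phospholipase, at 0.801 and Cse1l, which encodes a nuclear export factor, at 0.936. In the comparison of LPS with control, the limma adjusted p was 0.201 for Trim2, 0.295 for Pld1 and 0.938 for Cse1l, and 0.531 for Nlrp3, 0.243 for Mex3c and 0.300 for Eif4b.

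**Figure D4:**
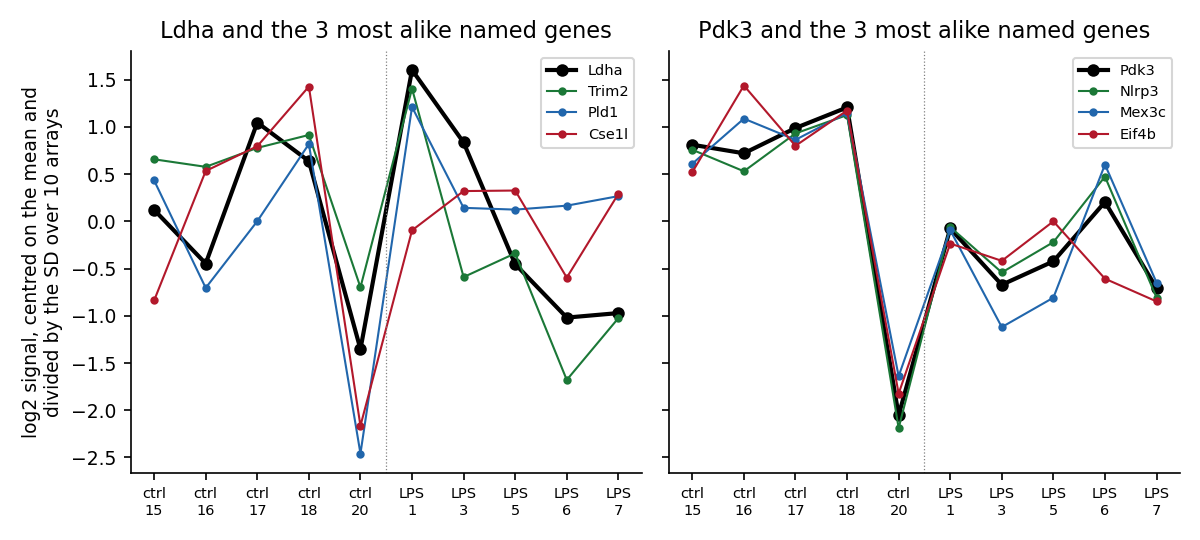
Scaled log2 signal of Ldha (left) and Pdk3 (right) with the 3 most alike named genes, each centred on its mean and divided by its SD over the 10 arrays; lines join the points of a gene and imply no order of the arrays. Nlrp3, Mex3c and Eif4b, picked for their likeness over these arrays, share the low point of Pdk3 at control replicate 20. Ldha, Pld1 and Cse1l are also lowest there. The genes around Ldha follow Ldha less closely, at 0.666 to 0.936, than those around Pdk3 follow Pdk3, at 0.144 to 0.405.

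Of 45 other genes of lactate and pyruvate metabolism that were listed, among them the further lactate dehydrogenases, pyruvate dehydrogenase kinases and phosphatases, the subunits of the pyruvate dehydrogenase complex, the lactate transporters and the glycolytic enzymes, none had a catalogue probe with a RefSeq accession. They were not analysed here, and the 2 genes described cannot stand for the pathway.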

How the data were processed

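The authors deposited scanner output, in which the intensity of each spot is linear, background-subtracted and detrended by Agilent Feature Extraction 11.0.1.1, per the file headers, and not normalized between arrays. Flags per spot (other values, 0 or 1) mark outliers and spots well above background, per the file headers. A log2 table deposited by the authors, with columns of equal quartiles, served as an alternative; no source used here names its tool.

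Outlier spots were left out (9 of the pair's 200), and spots of a probe averaged. Log2 of the mean minus log2 of the array's 75th percentile was tested with limma 3.58.1 in R 4.3.3 (lmFit and eBayes on group, 2-sided, Benjamini-Hochberg over 36020 probes well above background on at least 5 arrays; threshold 0.05). The normexp alternative used median spot signals. The step was also run on simulated data, with no slide effect and a spread taken without control replicate 20. There 29.9% of log2 changes of 0.5 and 85.1% of changes of 1 were found. It cannot speak to the effect of slide or of that array. The members and lists were chosen with earlier results of these data known. The rule for named genes was the pair, listed pathway genes with a probe, and the 3 genes most alike. Dlg4 was named after its values were seen. Gene names came from RefSeq accessions, and the probe sequences were not used here. The number of arrays limits the precision.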

Additional observations from a re-analysis of the deposited data

Results flagged for a closer look

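In groups of 5 arrays, a value was marked when its gap to the nearest other value exceeded 0.71 of the range of the group. Control replicate 20 was marked as the lowest control for Pdk3, with a gap of 0.851 of the range, and as the lowest for the log2 ratio of Pdk3 to Ldha within an array, with a gap of 0.757. Of 6 groups looked at, these 2 were marked, and they are not separate events, since both hold the Pdk3 value of the same array. About 1 in 20 would be marked if all arrays varied alike. Control replicate 20 lay apart over all probes and was the lowest of the 10 arrays at 19.7% of them. The share of all probes with such a mark was not computed, so how far the marks are particular to Pdk3 is not known. The SD of Pdk3 between the 5 controls, 0.64, exceeded that of 93.9% of tested probes. Ldha was not marked in either group.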

How the results depend on the processing

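Over 25 other settings Ldha passed the threshold in 1 and Pdk3 in 3. The Ldha difference, -0.00059, was so near 0 that its sign carried no meaning: it was 0.033 after normexp, 0.037 after quantile normalization and in the authors' deposited table, 0.034 after median centring, 0.023 when scaled to the other catalogue probes, 0.00028 with the mean of log2 spot signals, 0.53 with slide as a fixed block and within slide 3, 0.27 with a random block and 0.45 without scaling. Leaving out each array gave -0.11 to 0.068 for Ldha, -0.60 to -0.22 for Pdk3 and -0.52 to -0.22 for the difference between the changes of Pdk3 and Ldha, which was 0.27 within slide 3. Without control replicate 20 Pdk3 passed, at -0.60. It also passed with array weights, at -0.63. That setting lowers the influence of deviating arrays, so it is not separate from leaving out control replicate 20. With the fixed slide block Pdk3 passed at 0.79, where the control side is 1 array with no spread of its own. Other positive values were 0.79 within slide 3, 0.31 with a random block and 0.13 without scaling. After normexp Pdk3 was at -0.36, just short of the threshold (limma adjusted p = 0.0564), where 17509 of all probes passed. Over all probes 11897 passed, 3580 with the fixed block, 3127 with the random block, 826 within slide 3, 21951 with array weights and 7900 to 19655 when each array was left out (7900 without control replicate 17, 7926 without 18, 19655 without 20). Of the calls 45.6% were higher, 20.3% after normexp and 91.3% without scaling. The settings without scaling, with another averaging of spots and with catalogue-probe scaling were chosen after seeing the data. No paired analysis was possible because the groups share no replicate number.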

Other observations

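The same Ldha spot, at row 502 and column 29 of the array, was the dimmest of the 10 on all 10 arrays and was marked as an outlier on 8 of them. No Pdk3 spot was the dimmest on more than 5 arrays.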
